A study of Rattus norvegicus with 10 samples.

Results

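Transcripts of 6 genes of thyroid hormone handling were read in rat liver, taken by name from 14217 genes with a probe set of their own: Dio1 (the type 1 deiodinase, a selenoenzyme), Thra and Thrb (the thyroid hormone receptor genes, Thrb being the main one of liver), Klf9 (a Krüppel-like transcription factor switched on by T3), Ttr (transthyretin, a carrier of thyroxine made by liver) and Slc16a10 (a transporter of aromatic amino acids and thyroid hormone). All probe sets whose only annotated gene symbol equalled 1 of these 6 names were used, giving 13 of the 31042 probe sets tested. Thrb had 4, Thra and Klf9 had 3 each, and Dio1, Ttr and Slc16a10 had 1 each. 1 further probe set annotated to Ttr and to other genes at once was not used.

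Thyroid hormone reaches hepatocytes bound to carrier proteins in blood, enters through membrane transporters, and is converted by deiodinases, which remove iodine from the outer or the inner ring of the molecule. In the nucleus the active form, T3, binds receptors that sit on DNA together with a retinoid X receptor and switch target genes through corepressors and coactivators. The liver is both a target of the hormone and a place where it is activated, conjugated and broken down.

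Liver RNA of 10 Harlan Sprague Dawley rats was measured, each on its own array. In the HMB group 5 rats were given 2-hydroxy-4-methoxybenzophenone, the ultraviolet filter oxybenzone, at 10000 ppm in NTP-2000 diet for 13 weeks, and the 5 control rats were given the diet at 0 ppm. HMB 1 carried a dose label of 0 ppm against its title and chemical label and was kept in the HMB group. Cages held 5 rats. Should a cage have held a whole group, effects of cage and of HMB cannot be told apart, and no sex, age, litter or array date was given in the sources used here. Each array is labelled as a separate animal. In whole liver, fewer cells of a type and less RNA per cell cannot be told apart. Circulating thyroid hormone and thyroid tissue were not analysed here.

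Values are RMA log2 signals, and the number of arrays limits their precision. Each pair of arrays correlated at 0.987 to 0.995 across probe sets, which are not independent replicates. The 7 measured hepatocyte markers, among them Alb and Cps1, averaged 12.5 to 12.7 in each control and 12.5 to 12.7 in each HMB animal. In none of 9 marker lists, those of macrophages, endothelium, stellate cells, bile duct, lymphocytes, red cells, pancreas and thyroid included, did a gene pass in limma, and the 4 measured red cell markers were all above 0, with a mean over the list of 5.15 to 5.67 in controls and 5.49 to 5.97 in HMB. Their part in the results was not tested. The spread of all values on an array was smaller in HMB (SD 2.38 to 2.43) than in controls (2.43 to 2.50), with no overlap (exact two-sided permutation p = 0.00794, adjusted p = 0.0317 over 4 array measures). Beside this, the median log2 difference of all probe sets in 4 equal bins of mean signal, from dim to bright, was 0.09, 0.11, -0.08 and -0.10. The signal of poly-A transcripts added to the RNA, minus that of the hybridisation controls, was also higher in HMB, -1.73 ± 0.22 (SD, n = 5 arrays) against -2.04 ± 0.11 (exact two-sided permutation p = 0.0238, adjusted p = 0.0476). The part of these array differences in the results below was not tested beyond the refits given there.

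None of the 13 probe sets passed the test for a difference between HMB and control livers (limma, Benjamini-Hochberg adjusted p under 0.05 over 31042 probe sets), where 1.7% of all probe sets did, 0.705% higher and 0.995% lower in HMB. At an unadjusted p under 0.05 there were 3 of 13, against 24.1% of all probe sets. The 2 with the smallest p, the probe set of Dio1 and 1 of the 4 of Thrb, lay just outside the threshold, and in both the 5 HMB values were below the 5 control values. Such separation in the lower direction occurred in 2.93% of all probe sets, and separation in either direction in 5.77%. At a threshold of 0.1 these 2 would pass, against 7.83% of all probe sets. The median log2 difference over the 13 was -0.02, and that over all probe sets was 0.01. The estimates were below 0 in 8 of the 13 and above 0 in 5.

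**Figure D1:**
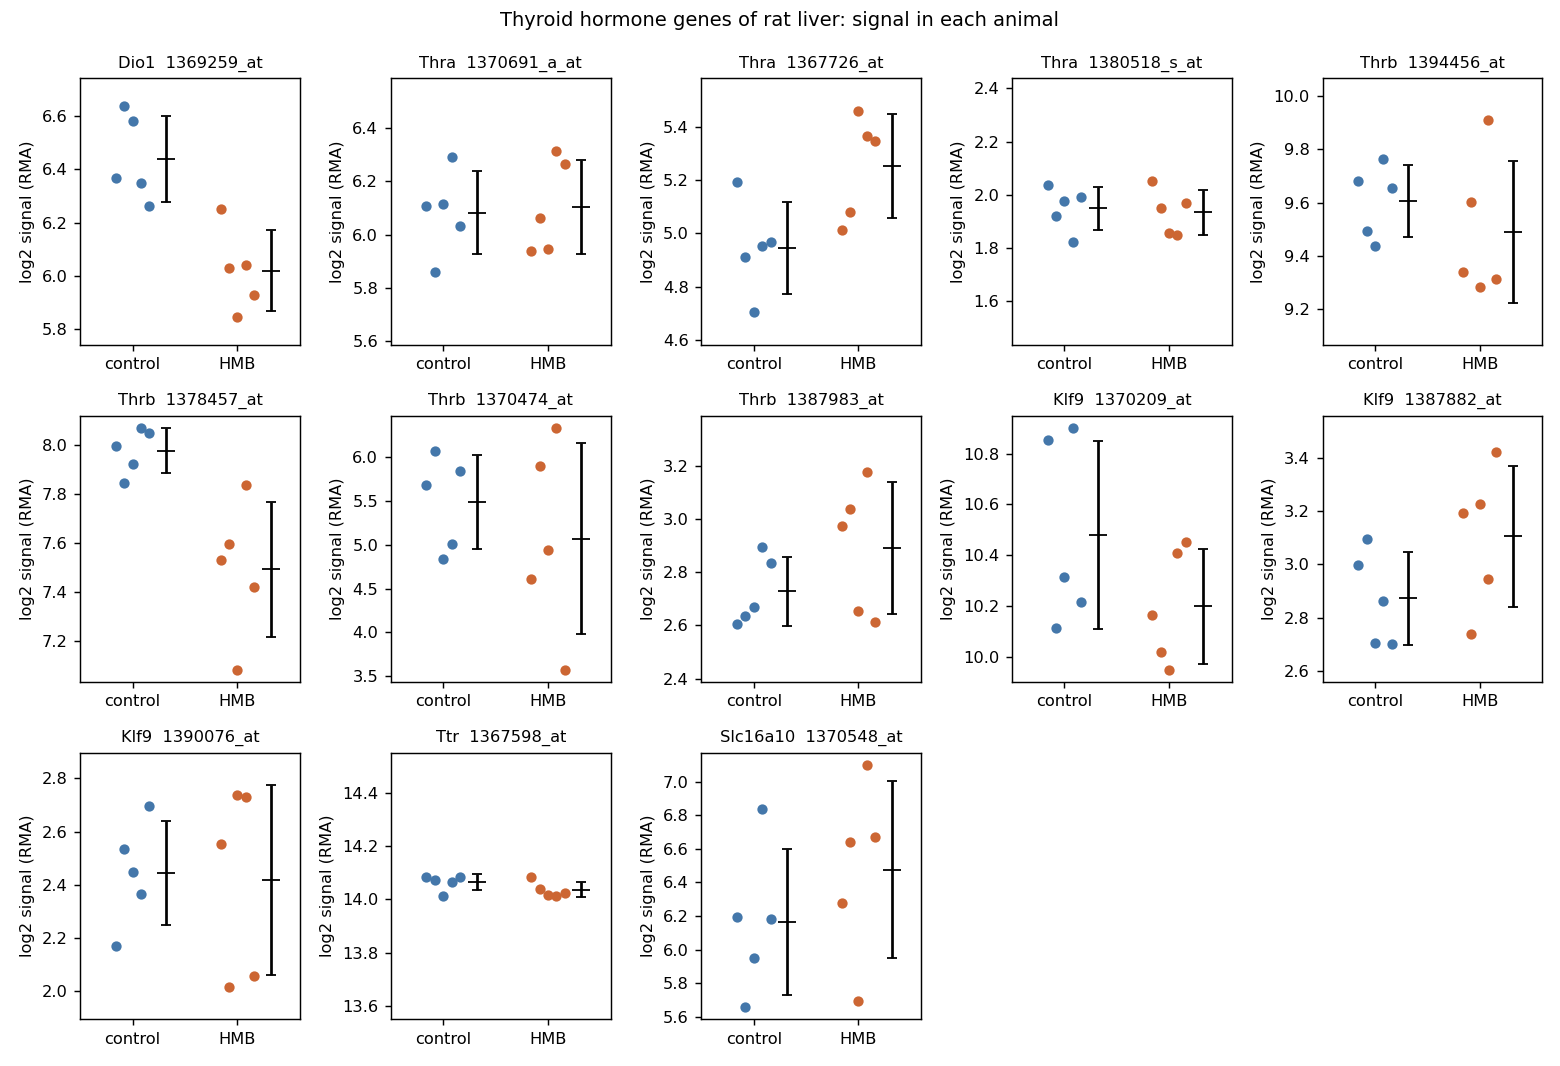
Log2 signal (RMA) of the 13 probe sets in each animal, controls in blue and HMB in orange; black marks are group means with SD, n = 5 per group, each panel has its own axis spanning at least 1 log2 unit, and points are spread sideways in replicate order. The Dio1 values and the Thrb 1378457_at values do not overlap between groups, while every other panel shows overlap.

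Dio1 removes iodine from both rings of thyroid hormone and is itself raised by T3, which makes its transcript a common readout of thyroid hormone action in liver. Its probe set, 1369259_at, read 6.37, 6.64, 6.58, 6.35 and 6.26 in controls 1 to 5. In HMB 1 to 5 it read 6.25, 6.03, 5.85, 6.04 and 5.93. The groups did not overlap, but only narrowly, because HMB 1 lay just below control 5. The means were 6.44 ± 0.16 (SD, n = 5) and 6.02 ± 0.15, a log2 difference of -0.42 ± 0.10 (SE, 95% interval -0.64 to -0.20). In linear terms the HMB signal was 0.747 times that of controls (interval 0.643 to 0.869). The limma adjusted p was 0.0533, and the exact two-sided permutation p was 0.00794, the smallest that the design allows, with an adjusted p of 0.0516 over the 13 probe sets. The difference therefore did not pass at 0.05 in limma, although it exceeded the SD within each group. The exact route could not have passed. With only 2 of the 13 probe sets at that smallest p, the adjusted p could be no lower than 0.0516.

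The call for this gene changed with the animal of the conflicting dose label, and not with that animal alone. Without HMB 1 the Dio1 log2 difference was -0.48 and passed (limma adjusted p = 0.0335). Of the 10 fits with 1 animal left out, the Dio1 difference passed in 2, the other being without control 1. Among these fits, that without control 1 had the highest count of passing probe sets over the whole array. Without control 2, control 4, control 5 or HMB 4 no probe set on the array passed. With HMB 1 counted as a control it was -0.45 and also passed (limma adjusted p = 0.0451). Over 21 other settings the estimate stayed between -0.50 and -0.29 and passed in 7, with adjusted p from 0.0309 to 0.465. The estimate was smaller after cyclic loess normalization (-0.32, adjusted p = 0.118), after quantile normalization (-0.29, adjusted p = 0.141) and when the fit was adjusted for poly-A signal (-0.33, adjusted p = 0.381). HMB 1 and HMB 2, whose poly-A signal lay within the range of controls (-1.92 and -1.96) and whose GAPDH 3' minus 5' signal was below all controls (1.31 and 1.38), had the highest and a middle Dio1 value of their group. With HMB 3, HMB 4 and HMB 5 left out the Dio1 estimate was -0.30 (limma adjusted p = 0.465), and with HMB 1 and HMB 2 left out it was -0.50 (adjusted p = 0.0309). No probe set on the array passed without HMB 3 to HMB 5 or with the poly-A covariate.

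The other deiodinases read near the bottom of the scale, with Dio2, which activates thyroxine in other tissues, at 2.43 in controls and 2.49 in HMB, and Dio3, which inactivates the hormone, at 3.46 and 3.45. Neither passed (limma adjusted p = 0.698 and 0.963). Dio1 needs selenocysteine, so 13 genes that make or contain it were read beside it. None of the 13 passed, 8 were below 0 and 5 above, and the median log2 difference was -0.07 against -0.02 over all 14217 genes, each taken by its brightest probe set (1.62% of genes passed, and 0.914% of genes passed in the lower direction). After cyclic loess the median of the 13 was 0.01. The smallest p values belonged to Gpx1, the cytosolic glutathione peroxidase (-0.16, adjusted p = 0.208), Selenow (0.21, adjusted p = 0.216) and Sephs2, which makes selenophosphate (-0.14, adjusted p = 0.339).

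Thrb encodes the receptor through which T3 acts on most hepatic genes, and its 4 probe sets did not move alike. In the probe set 1378457_at the controls read 7.998, 7.85, 7.92, 8.07 and 8.05. The HMB animals read 7.53, 7.60, 7.08, 7.84 and 7.42. All HMB values were below all control values, with HMB 4 just under control 2 and HMB 3 the lowest. The log2 difference was -0.48 ± 0.12 (SE, 95% interval -0.74 to -0.22), a signal 0.715 times that of controls, and it did not pass (limma adjusted p = 0.0575). The SD was 0.09 in controls and 0.28 in HMB. Over 20 other settings this estimate stayed between -0.57 and -0.29 and passed in 2, those with a trended robust prior (adjusted p = 0.0423) and with arrays at the same median (adjusted p = 0.0464). It was -0.37 after cyclic loess (adjusted p = 0.145) and -0.42 with HMB 1 counted as a control (adjusted p = 0.107).

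The brightest Thrb probe set, 1394456_at, read 9.68, 9.49, 9.44, 9.76 and 9.66 in controls and 9.34, 9.60, 9.28, 9.91 and 9.31 in HMB. The groups overlapped, with HMB 4 the highest of all 10 animals and 3 HMB animals below every control. Its log2 difference was -0.12 ± 0.12 (SE, 95% interval -0.38 to 0.15, limma adjusted p = 0.581). The probe set 1370474_at ranged from 4.84 to 6.07 in controls and from 3.58 to 6.33 in HMB, the widest spread of the 13. Its log2 difference of -0.42 had a 95% interval from -1.35 to 0.51. The dimmest, 1387983_at, lay between 2.61 and 3.18 in all animals, with a log2 difference of 0.16 ± 0.12 (limma adjusted p = 0.403).

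The disagreement between the 2 bright Thrb probe sets was larger than the spread between animals. Their difference within each animal (1394456_at minus 1378457_at) was 1.51 to 1.69 in controls and 1.81 to 2.20 in HMB, with no overlap. The shift of 0.37 gave an exact two-sided permutation p = 0.00794, the smallest possible, with an adjusted p of 0.0317 over the 12 probe set pairs of Thrb, Thra and Klf9. After cyclic loess the shift was 0.33 (exact permutation adjusted p = 0.0476). Pairs with the dim 1387983_at shifted by -0.65 for 1378457_at (-0.43 after cyclic loess, exact permutation adjusted p = 0.0476) and by -0.28 for 1394456_at (-0.10 after cyclic loess, adjusted p = 0.571). That probe set lies in the dimmest bin of signal, whose median log2 difference was 0.09 against -0.10 in the brightest bin, so these pairs do not separate the Thrb probe sets from the shift of all dim and bright ones. The annotation gives no transcript form for these probe sets, so which Thrb transcripts each reads was not analysed here.

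The 250 bases before the RefSeq start of Dio1 and Thrb, the 2 genes whose probe sets came nearest to the threshold, are shown to set their unlike promoters side by side (GRCr8, 5′ to 3′ on the gene's strand, Dio1 at chr5:127319785-127320034 and Thrb at chr15:10461447-10461696, both on the minus strand). Capitals mark the letters AGGTCA or GGGTCA, forms of the half-site that nuclear receptors such as the thyroid hormone receptors bind, searched on both strands.
Dio1: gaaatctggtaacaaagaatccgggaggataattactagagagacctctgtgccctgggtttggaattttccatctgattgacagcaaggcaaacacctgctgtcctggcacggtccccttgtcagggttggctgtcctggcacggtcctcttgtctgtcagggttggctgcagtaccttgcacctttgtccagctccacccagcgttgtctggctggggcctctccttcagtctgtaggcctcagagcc
Thrb: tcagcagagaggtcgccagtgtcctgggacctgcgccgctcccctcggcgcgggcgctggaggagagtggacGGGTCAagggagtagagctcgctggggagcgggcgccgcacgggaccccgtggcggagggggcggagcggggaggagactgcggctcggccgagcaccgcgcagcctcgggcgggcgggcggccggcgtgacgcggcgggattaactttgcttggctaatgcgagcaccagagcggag
The Dio1 window held no match and 55.2% G and C, and the Thrb window held 1 GGGTCA and 74.0% G and C, where the median of all 33469 RefSeq windows was 51.2%. Of the 7 windows listed for the 6 genes, 2 held a match, the other being AGGTCA before Slc16a10, and 23.9% of all windows held either form. A match is a description of the letters only.

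Thra encodes the other receptor, which acts mainly outside the liver. Its brightest probe set, 1370691_a_at, read 6.11, 5.86, 6.11, 6.29 and 6.03 in controls and 5.94, 6.06, 5.94, 6.31 and 6.26 in HMB. The groups overlapped throughout, and the log2 difference was 0.02 ± 0.10 (SE, 95% interval -0.20 to 0.25, limma adjusted p = 0.910). The probe set 1367726_at had its estimate on the other side of 0 from the 2 bright probe sets of Thrb. It read 5.19, 4.91, 4.70, 4.95 and 4.97 in controls and 5.01, 5.08, 5.46, 5.36 and 5.35 in HMB. The 3 animals HMB 3 to HMB 5 were above every control and HMB 1 and HMB 2 were below control 1. The log2 difference was 0.31 ± 0.11 (95% interval 0.07 to 0.55, limma adjusted p = 0.130, exact two-sided permutation p = 0.0476 with an adjusted p of 0.206 over the 13). The same 3 HMB animals had the highest GAPDH 3' minus 5' signals of all arrays, 1.97, 2.09 and 1.90 against 1.77 or less. With those 3 left out the estimate was 0.10 (limma adjusted p = 0.814), and with HMB 1 and HMB 2 left out it was 0.45 (adjusted p = 0.0424). The dim probe set 1380518_s_at lay between 1.82 and 2.05 in all animals.

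Nr1d1, the clock repressor REV-ERB alpha, lies on the opposite strand and its RefSeq span overlaps the end of Thra. It read 4.43, 5.70, 5.95, 4.50 and 5.94 in controls and 5.33, 5.72, 3.74, 6.61 and 6.14 in HMB, so the spread within groups exceeded the difference of 0.20 ± 0.48 (SE, limma adjusted p = 0.818). Its paralogue Nr1d2 differed by -0.13 (adjusted p = 0.753).

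Among receptor partners, Rxra, the main retinoid X receptor of liver, differed by 0.07, Rxrb by -0.20 (limma adjusted p = 0.294) and Rxrg by 0.19 (adjusted p = 0.167). Taken by their brightest probe sets, 0 of 12 measured coregulators passed, 9 were below 0 and 3 above, and the median was -0.10. Of all probe sets in the brightest bin of signal, 74.7% were below 0, with a median of -0.10 as well. After cyclic loess the median of the 12 coregulators was -0.01. By limma, 2 of these 12 had an unadjusted p under 0.05, as did 24% of all genes taken by their brightest probe sets. The 2 were the coactivators Ncoa3 (-0.39, adjusted p = 0.0970) and Med1 (-0.24, adjusted p = 0.128). The coactivator Ncoa1 came next (-0.14, adjusted p = 0.263). The histone deacetylase Hdac3 of the corepressor complex was at -0.13 and the brightest probe set of the corepressor Ncor1 at -0.01. Other probe sets of Ncor1 were at -0.56 (limma adjusted p = 0.188) and -0.13 (adjusted p = 0.402). Over all 32 probe sets of these coregulators 2 passed, or 6.25%, against 1.7% of all probe sets, and both fell, against 0.995% of all probe sets. In 4 of the 32 all HMB animals were below all controls, against 2.93% of all probe sets. These 2 were chosen after their values were seen. A second probe set of Med1, a subunit of the Mediator complex that contacts the receptors, fell by 0.58 on the log2 scale (SE 0.09, limma adjusted p = 0.0288). It went from 6.69 ± 0.14 (SD, n = 5) to 6.12 ± 0.14, with all HMB animals below all controls. A probe set of Crebbp, the acetyltransferase CBP, fell by 1.21 (SE 0.24, adjusted p = 0.0353) from 5.60 ± 0.21 to 4.39 ± 0.62, HMB 3 being the lowest at 3.61. The Crebbp probe set with the highest signal was at -0.05 (limma adjusted p = 0.737). The next brightest was at -0.37 with all HMB animals below all controls and did not pass (adjusted p = 0.0533), and the remaining 2 were at -0.14 and -0.09. Med1 passed in 11 of 20 other settings and Crebbp in 9 of 20. After cyclic loess Med1 was at -0.47 and passed (limma adjusted p = 0.0405) and Crebbp was at -1.21 and did not (adjusted p = 0.0538). With the poly-A covariate neither passed (Med1 -0.52, adjusted p = 0.236, and Crebbp -0.61, adjusted p = 0.342), nor with HMB 3 to HMB 5 left out (-0.48 and -0.59). In these settings no probe set on the array passed. Both lost the call when control 2, 3, 4 or 5 or HMB 2, 4 or 5 was left out, with adjusted p from 0.0517 to 0.0888. Without control 2, control 4, control 5 or HMB 4 no probe set on the array passed, so those losses are not particular to these genes. With 1 animal left out the estimates stayed between -0.63 and -0.53 for Med1 and between -1.40 and -1.02 for Crebbp.

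Klf9 carries the T3 response of many cells into further transcription and also responds to glucocorticoids. Its bright probe set, 1370209_at, read 10.85, 10.11, 10.32, 10.90 and 10.21 in controls and 10.17, 10.02, 9.95, 10.41 and 10.45 in HMB. Controls 1 and 4 stood above all other animals, and the remaining 3 controls lay within the HMB range. The log2 difference was -0.28 ± 0.17 (SE, 95% interval -0.64 to 0.08, limma adjusted p = 0.310). Its dim probe sets, 1387882_at between 2.70 and 3.42 and 1390076_at between 2.02 and 2.74, had log2 differences of 0.23 and -0.02, and the gap between the bright probe set and 1387882_at did not pass over the 12 pairs (exact permutation adjusted p = 0.143).

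**Figure D2:**
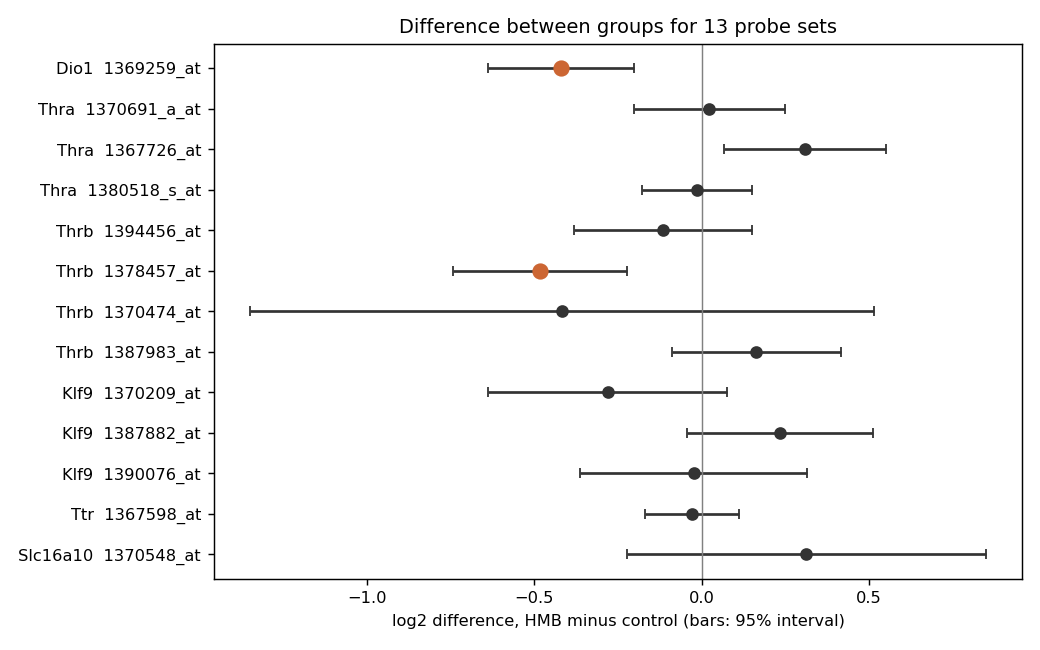
Log2 difference (HMB minus control) of the 13 probe sets with 95% intervals from limma, n = 5 per group. Orange points mark the 2 probe sets with all HMB animals below all controls, at -0.42 for Dio1 and -0.48 for Thrb 1378457_at, and the interval of Ttr from -0.17 to 0.11 is the narrowest.

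Ttr had the smallest spread between animals of the 13 probe sets. It read 14.08, 14.07, 14.01, 14.07 and 14.09 in controls and 14.08, 14.04, 14.02, 14.01 and 14.02 in HMB. The groups overlapped over nearly their whole range. These are among the highest signals of the arrays, where differences can be compressed, and whether they were was not tested. The log2 difference was -0.03 ± 0.07 (SE, limma adjusted p = 0.812), and its 95% interval on the measured scale runs from 0.889 to 1.08 times the control signal. The other carriers did not pass either. Serpina7, thyroxine-binding globulin, was at 0.22 (limma adjusted p = 0.458), Alb at -0.05, Rbp4, which travels bound to transthyretin, at -0.02, and Crym, which binds T3 inside cells, at -0.09 (adjusted p = 0.644).

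Slc16a10 varied more between animals than between groups. It read 6.19, 5.66, 5.95, 6.84 and 6.18 in controls and 6.27, 6.64, 5.69, 7.10 and 6.67 in HMB. Control 4 and HMB 4 were the highest of their groups, and control 2 and HMB 3 the lowest. The log2 difference was 0.31 ± 0.25 (SE, 95% interval -0.22 to 0.85, limma adjusted p = 0.451), which allows anything from 0.856 to 1.80 times the control signal. None of the 9 measured transporters passed, with 6 above 0 and 3 below and a median of 0.15 by their brightest probe sets. With the dimmest 25% of probe sets left out the median was 0.10, and after cyclic loess of all 9 it was 0.07. Over all 11 probe sets of these transporters 5 were below 0 and the median was 0.03. Slco1b2, a liver uptake transporter of organic anions, was at 0.16 (adjusted p = 0.257), and its other probe set at -0.19 (adjusted p = 0.362). Slc7a8, an amino acid exchanger, was at 0.21 (adjusted p = 0.273) and Slco1c1, the thyroxine transporter of brain vessels, at 0.15 (adjusted p = 0.378). Slco1c1 read near the bottom of the scale, at 2.05 in controls and 2.20 in HMB. The bright transporters Slco1a1, Slco1a4 and Slc10a1 were at -0.01, -0.14 and 0.03.

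Within groups, Thra deviated from animal to animal together with Slc16a10 and with Klf9 by Pearson's r, and neither pair passed by Spearman's rho. After each group's mean was subtracted, the brightest probe set of Thra correlated with that of Slc16a10 (Pearson r = 0.871, exact permutation p = 0.00396 and adjusted p = 0.0469 over 15 gene pairs, and Spearman rho = 0.818, exact permutation p = 0.0115 and adjusted p = 0.0924, n = 10 animals permuted within groups). Thra also correlated with Klf9 (r = 0.794, exact permutation p = 0.00625 and adjusted p = 0.0469, and rho = 0.770, exact permutation p = 0.0182 and adjusted p = 0.0924). Without the 2 animals whose Thra deviated most, r was 0.731 and 0.683. Within controls r was 0.909 and 0.809, and within HMB 0.844 and 0.863. Control 4 was the highest control for Thra, Thrb, Klf9 and Slc16a10, and HMB 4 was the highest HMB animal for Thra, Thrb and Slc16a10. Klf9 with Slc16a10 (r = 0.729, exact permutation adjusted p = 0.0521) and Thrb with Slc16a10 (r = 0.782, exact permutation adjusted p = 0.0521) did not pass. Over both groups together Dio1 followed none of the other genes, with r from -0.346 to 0.117 and exact permutation adjusted p of 0.672 or more. The groups differed in this. Within controls r of Dio1 ran from -0.850 (Thrb) to -0.478 (Klf9), and within HMB from -0.199 (Thra) to 0.866 (Ttr). These values rest on 5 animals each and were not tested. All these values come from the same arrays and share their normalization.

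**Figure D3:**
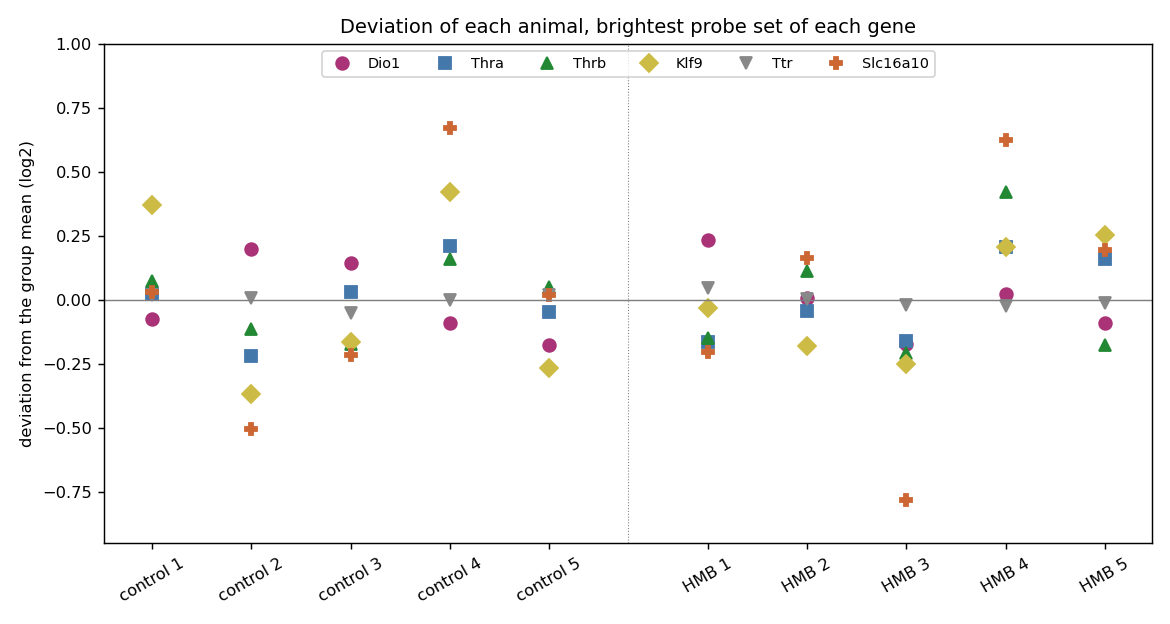
Deviation of each animal from its group mean (log2 units) for the brightest probe set of each of the 6 genes, controls on the left of the dotted line and HMB on the right. Control 4 and HMB 4 lie above 0 for Thra, Thrb, Klf9 and Slc16a10, and Dio1 and Ttr do not follow them.

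Likeness to single other genes was read over the 10 arrays by Pearson r on log2 values, among 9501 genes of above-median signal, as a description of arrays that share their normalization. Dio1 was most like Ppm1f (r = 0.968), Maob (0.959) and Trnau1ap (0.951), and Maob was again among the nearest 3 after group means were subtracted (0.916). None of these 3 passed the test between groups, at log2 differences of -0.16, -0.26 and -0.15. Thra was most like Ltbr (0.934), Syne2 (0.899) and Zmynd8 (0.895), and Thrb most like Dapp1 (0.889), Nrip1 (0.880) and Nfe2l1 (0.849). Klf9 was most like Zfhx3 (0.906), Asap2 (0.888) and Nav2 (0.883). Ttr was most like Gsap (0.925), Tmed10 (0.914) and Gga2 (0.904), and Slc16a10 most like Adss1 (0.928), Anapc13 (0.902) and Mindy3 (0.893). With group means subtracted, Ltbr, Dapp1, Gsap and Adss1 were again among the nearest 3, while none of the nearest 3 of Klf9 was shared (Pcsk4 at 0.930, Slf2 at 0.928 and Mknk2 at 0.913).

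The classic hepatic responses to thyroid hormone went both ways, and 0 of 18 measured targets, Klf9 among them, passed. Of these, 10 were below 0 and 8 above, the median was -0.06, and 6 had an unadjusted p under 0.05 in limma, as did 24% of all genes taken by their brightest probe sets. Hr, the T3-induced corepressor hairless, was the nearest, at 0.57 ± 0.14 (SE, limma adjusted p = 0.0523). It was dim, at 2.42 to 2.94 in controls and 3.00 to 3.65 in HMB, with no overlap. Hr passed in 6 of 21 other settings, among them those without control 1 (limma adjusted p = 0.0384) or HMB 1 (adjusted p = 0.0440), with adjusted p from 0.0384 to 0.378 over the 21. Of the fits with 1 animal left out, that without control 1 had the most passing probe sets over the array. Gpd2, the mitochondrial glycerol-3-phosphate dehydrogenase that rises with thyroid hormone, was at -0.57 ± 0.17 (adjusted p = 0.0835), and its other probe set was at -0.43. Without control 1 the first passed (-0.73, limma adjusted p = 0.0196). Fgf21, a secreted hormone of fasting liver, was at -0.87 ± 0.25 (adjusted p = 0.0788), with 4 of 5 HMB animals below all controls. Thrsp (Spot 14, a lipogenic factor) read 9.85, 10.16, 10.002, 11.20 and 10.23 in controls and 10.06, 10.15, 10.19, 9.59 and 9.22 in HMB. Only HMB 4 and HMB 5 were below all controls, the log2 difference was -0.44 ± 0.25 (adjusted p = 0.284), and its other probe sets were at -0.58 and -0.73. Me1, the malic enzyme that supplies NADPH for lipogenesis, was at 0.32 ± 0.14 (adjusted p = 0.194) and Cpt1a, the gate of mitochondrial fatty acid oxidation, at 0.42 (adjusted p = 0.180). Apoa1 was at -0.25 (limma adjusted p = 0.157).

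**Figure D4:**
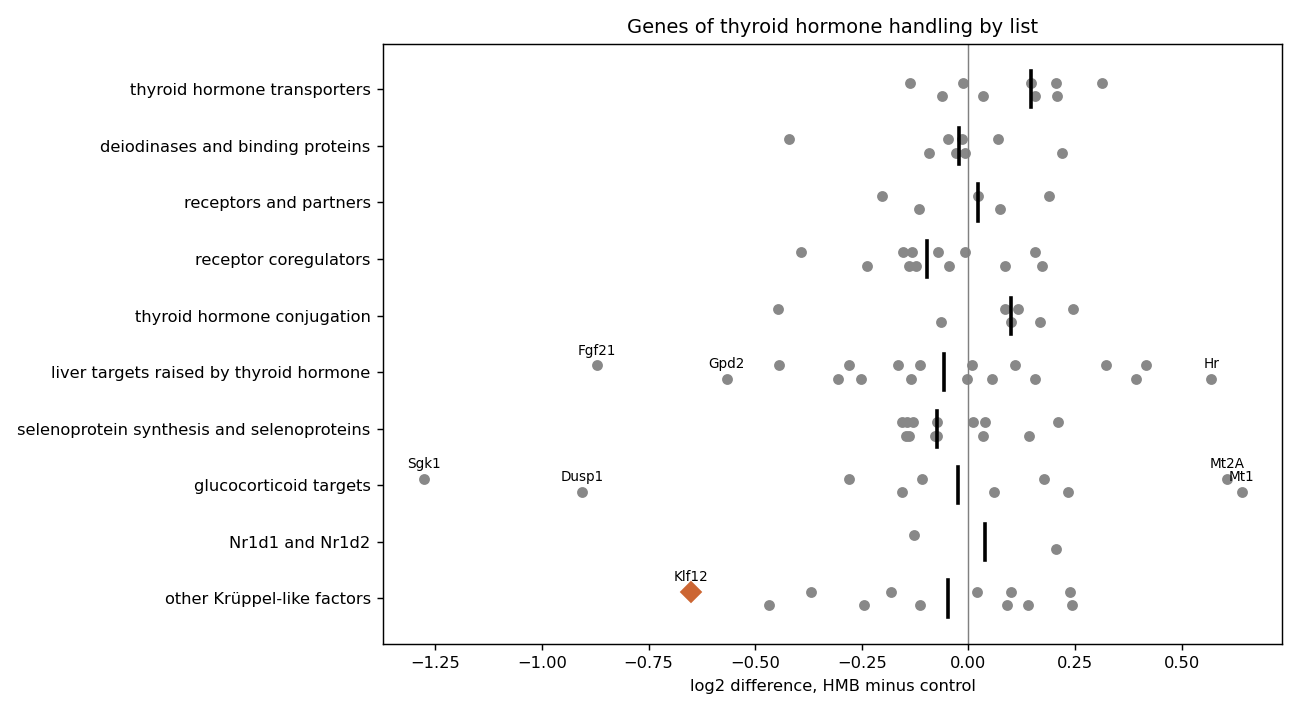
Log2 difference (HMB minus control) of each measured gene, by its brightest probe set, in 10 lists of thyroid hormone handling and neighbouring functions; the black bar is the list's median, and the orange diamond marks the 1 gene that passed (Klf12, -0.65), while grey points did not pass. Genes beyond 0.5 log2 units are named.

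Conjugation, by which liver readies thyroid hormone for bile and urine, had 0 of 7 measured genes passing, 5 above 0 and 2 below, with a median of 0.10. Sult1c2 was at -0.45 (limma adjusted p = 0.146), Sult1b1, a sulfotransferase that acts on iodothyronines, at 0.17 (adjusted p = 0.214) and the glucuronosyltransferase Ugt2b1 at 0.25 (adjusted p = 0.282). Ugt1a1 and Ugt1a6 had no probe set named for them alone.

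Because Klf9 also answers to glucocorticoids, 10 glucocorticoid response genes, Klf9 itself included, were read, and 0 passed, 5 above 0 and 5 below. 2 had an unadjusted p under 0.05 in limma, as did 24% of all genes taken by their brightest probe sets. Sgk1, a kinase, had the largest log2 difference among the brightest probe sets of these 10 genes, -1.28 ± 0.32 (SE, limma adjusted p = 0.0587), with all HMB animals (7.51 to 8.31) below all controls (8.33 to 10.39). Sgk1 passed in 3 of 21 other settings, 1 of them without control 1 (limma adjusted p = 0.0292). Of the fits with 1 animal left out, that one had the most passing probe sets over the array. Dusp1, a phosphatase of MAP kinases, was at -0.91 (adjusted p = 0.134) and the metallothionein Mt1 at 0.64 (adjusted p = 0.301), while Fkbp5, Per1 and Tsc22d3 were at 0.23, 0.06 and 0.18. Of 12 other Krüppel-like factors 1 fell and 11 did not pass, where 0.914% of all genes passed in the lower direction. Klf12, a repressor of the family, fell by 0.65 on the log2 scale (SE 0.12, limma adjusted p = 0.0329) from 7.06 ± 0.19 (SD, n = 5) to 6.41 ± 0.23, with all HMB animals below all controls. After cyclic loess Klf12 was at -0.53 and did not pass (adjusted p = 0.0812), and its dimmer probe set was at 0.12. It lost the call when control 2, 3, 4 or 5 or HMB 2, 4 or 5 was left out (adjusted p 0.0566 to 0.0827). No probe set on the array passed without control 2, control 4, control 5 or HMB 4. With 1 animal left out the Klf12 estimate stayed between -0.73 and -0.58. Klf12 also lost the call with HMB 1 counted as a control (adjusted p = 0.0674). Klf5, Klf10 and Klf11 were at 0.24, -0.47 and -0.37 by their brightest probe sets. That of Klf5 was dim, at 2.65 in controls and 2.89 in HMB, and other probe sets of Klf11 were at 0.27 and -0.05.

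**Figure D5:**
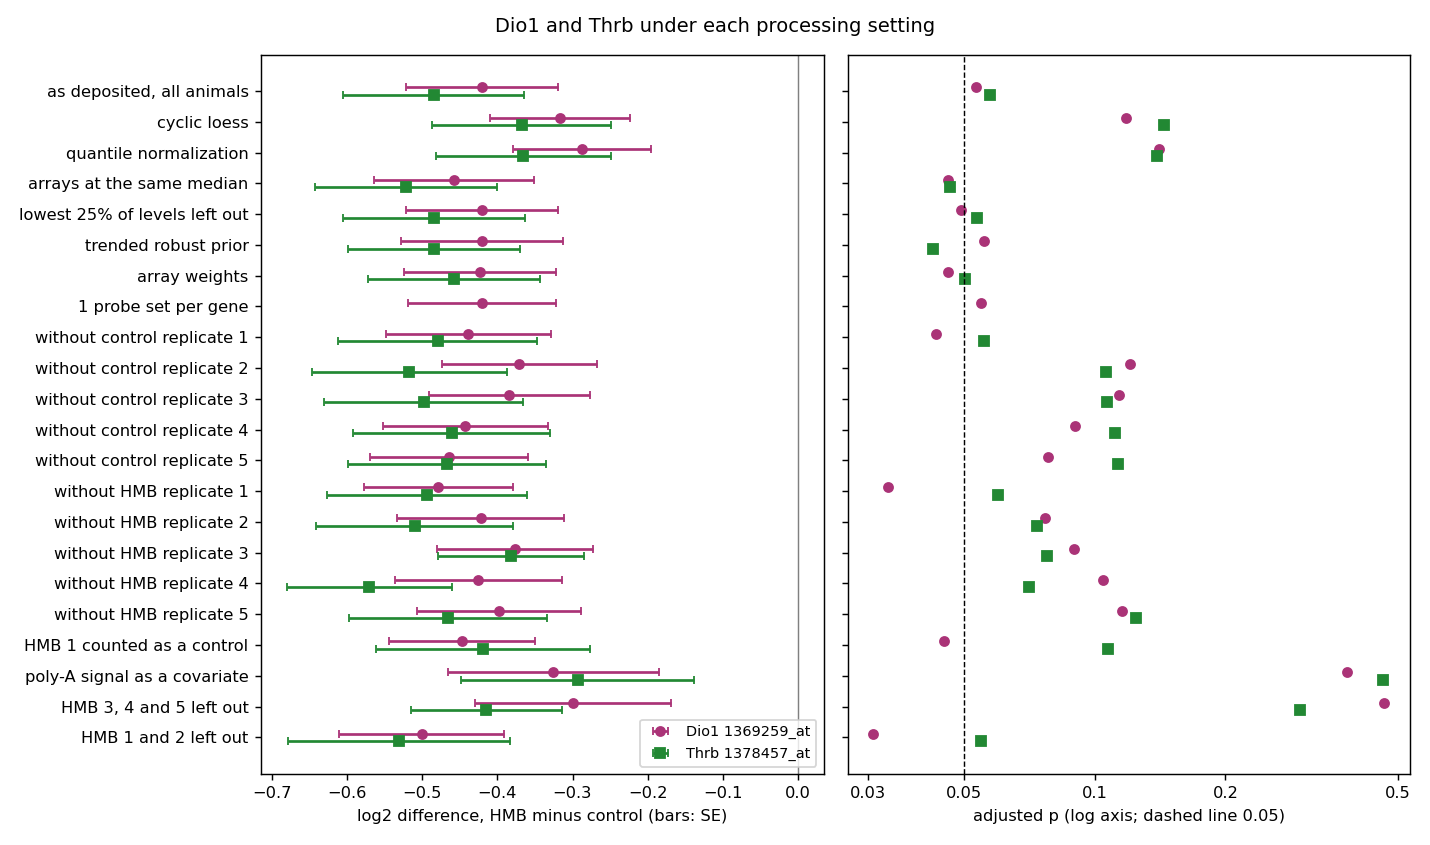
Left, log2 difference (HMB minus control, bars SE) and right, limma adjusted p on a log axis for Dio1 1369259_at (circles) and Thrb 1378457_at (squares), as deposited and under each other processing setting. All estimates lie below 0, and adjusted p falls on both sides of the dashed line at 0.05, passing in 7 settings for Dio1 and 2 for Thrb.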

How the data were processed

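Liver RNA of 10 rats was hybridised to Affymetrix rat genome arrays. The deposited table holds log2 values made by the authors with RMA, per the submitters' processing notes; the version is not given in the sources used here. From 31099 probe sets, 57 array controls were left out and 31042 were tested with limma 3.58.1 in R 4.3.3 (lmFit and eBayes, 5 HMB against 5 control animals, Benjamini-Hochberg over all probe sets, threshold 0.05). RMA fits the arrays together, so a change in signal distribution can move single values. Exact two-sided permutation tests used all assignments of animals to groups.

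Gene names came from the array's annotation (20826 with 1 symbol, 436 with several, 9780 with none), with symbols updated through RefSeq (GRCr8), where 20758 matched. Promoter sequences are RefSeq's. The fit was tested on simulated data for this comparison with 31042 probe sets and 200 changed ones: 43.5% were recovered at a log2 change of 0.5, 95% at 1 and 99.5% at 2.

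The members and gene lists were chosen with earlier results of these data known. Named were all member probe sets, and in each list the genes that passed and the 3 others with the smallest p. Nr1d1, Thrsp, Me1 and Hr were always named, as were for each member the 3 genes of highest r. Further list genes named beside these were chosen for their function, and Apoa1 for its unadjusted p under 0.05 in limma. Alternatives were other normalizations, a 25% filter, other priors and weights, animals left out, the label of HMB 1 and the poly-A covariate.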

Additional observations from a re-analysis of the deposited data

Results flagged for a closer look

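Ttr in control 3 read 14.01 on the log2 scale, apart from the other 4 controls, of which the nearest was at 14.07 and the highest at 14.09. It was the 1 value that stood apart in 26 combinations of probe set and group examined. Chance gives about 1 in 20 such groups.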

How the results depend on the processing

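The count of all probe sets that passed, 528, moved to 125 after cyclic loess, 106 after quantile normalization, 925 with array weights, 244 with 1 probe set per gene, 2094 without HMB 1 and HMB 2, and 2432 at an adjusted p under 0.1. It was 0 with the poly-A covariate and without HMB 3 to HMB 5, where limma gave 3806 and 3276 at an unadjusted p under 0.05. Leaving out 1 animal gave from 0 to 1653, the highest without control 1 and 0 without control 2, control 4, control 5 or HMB 4 (5928, 6558, 6437 and 6004 at an unadjusted p under 0.05). Of the 13 member probe sets, none of which passed as deposited, 2 passed with arrays at the same median, without HMB 1 and HMB 2, and at 0.1; 1 passed with the 25% filter, the trended prior, array weights or HMB 1 as a control, and 0 to 1 with 1 animal left out. The sign turned in 6 of the 13: Thra 1370691_a_at at -0.015 (arrays at the same median), -0.046 (poly-A covariate) and -0.082 (without HMB 3 to HMB 5), and -0.032 to 0.076 with 1 animal left out; Thra 1380518_s_at at 0.040 (poly-A covariate) and 0.052 (without HMB 3 to HMB 5), and -0.046 to 0.0075 with 1 animal left out. With the poly-A covariate Thrb 1394456_at was at 0.050, Thrb 1370474_at at 0.50 and Ttr at 0.0039. Klf9 1390076_at was at 0.064 without HMB 1 and HMB 2, and -0.10 to 0.076 with 1 animal left out. The cause was not tested. Cyclic loess of the probe set pairs was chosen after seeing the data. No paired analysis was possible because the replicate numbers follow accession order and pair no animals. Dim probe sets, such as those of Thra, Thrb and Klf9 below 3.5, limit what can be read from them.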
